A study of Mus musculus with 6 samples.

Results

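10 genes of mitotic chromosome structure were read from the count table by their symbols: Mki67, Top2a, the SMC genes Smc2 and Smc4, the condensin I genes Ncapd2, Ncapg and Ncaph, and the condensin II genes Ncapd3, Ncapg2 and Ncaph2. All 10 were found among the 54232 genes of the table, and all 10 were among the 10067 genes with enough counts to be tested. The cells were leukaemic B cells sorted from the spleen in a mouse model of chronic lymphocytic leukaemia (CLL). The CK1i group (3 libraries) came from recipients dosed orally with PF-670462, which blocks the delta and epsilon forms of casein kinase 1, at 50 mg/kg in a vehicle of PBS with 10% kolliphor. The CTRL group (3 libraries) came from recipients that had the same vehicle alone. Both groups were wild-type C57BL/6J mice that carried transferred Eµ-TCL1 leukaemia cells, a mononuclear fraction of donor spleen of which 99% were CLL cells per the labels. In Eµ-TCL1 mice the immunoglobulin heavy chain enhancer drives the TCL1 oncogene in B cells, and recipients keep their own normal B cells and other spleen cells. Dosing began 5 days after transfer, in cycles of 5 days of treatment and 2 days of rest for 8 weeks in all, and ended when CTRL mice had at least 60% CD5+ CD45R(low) CLL cells among blood leukocytes. The age and sex of the mice, the number of donors and whether each library is 1 mouse are not given in the sources used here, so p-values measure a spread between libraries that may be partly technical.

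Condensins are ring-shaped ATPases that fold chromatin into loops and so shape mitotic chromosomes. Both condensins share the SMC2 and SMC4 proteins, which form the ATPase heads and coiled-coil arms, and each adds its own kleisin and HEAT-repeat subunits. Condensin II is nuclear throughout the cell cycle and starts compaction in prophase, whereas condensin I is cytoplasmic in interphase and reaches chromosomes after nuclear envelope breakdown. Topoisomerase II alpha, the product of Top2a, passes DNA duplexes through each other and so removes tangles between sister chromatids. Ki-67, the product of Mki67, coats mitotic chromosomes, keeps them apart as a surfactant, and is the standard stain for cycling cells in lymphoid tissue. The mRNAs of Top2a and Mki67 are known to accumulate in G2 and M phase.

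Many genes with that timing carry a cell cycle genes homology region (CHR element), bound by the MuvB-containing DREAM and B-MYB complexes, and CCAAT boxes, bound by NF-Y. RefSeq promoter windows on GRCm38.p6 were found for 9 of the 10 genes, all but Smc4, with a second start listed for Ncapd3. The 250 bases before each start were searched on both strands for TTTGAA (the CHR element), for TTCGAA (a variant of it that reads the same on both strands) and for CCAAT, and the matches did not overlap each other. TTTGAA was found for 7 of the 9 genes, in 7 of the 10 windows. It was found in 16% of all 32851 mouse promoter windows and 10.7% of the 9809 windows of tested genes. For Ncapd3 the match was at the second start only. The bases after that start were not found near the beginning of an annotated Ncapd3 transcript. CCAAT was found for 5 of the 9 genes, in 5 of the 10 windows, and in 33.8% of all windows and 35.4% of those of tested genes. Both motifs together were found in 5 of the 10 windows, against 5.55% of all windows and 4.12% of those of tested genes. A match describes the letters only and is not evidence of binding.

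The stretches that hold the matches are shown so that the number and spacing of the motifs can be compared between genes. Capitals mark the CHR element, its variant and CCAAT boxes, as these letters or as their reverse complements, and the rest is in lower case. Each stretch runs 5′ to 3′ on the strand of the gene, with 12 bases on either side of the outer matches where the window allows. They lie at chr7:135716460-135716579 (minus strand) for Mki67, chr11:99024195-99024428 (minus) for Top2a, chr6:125191618-125191775 (minus) for Ncapd2, chr4:52439064-52439118 (plus) for Smc2, chr5:45669737-45669912 (plus) for Ncapg, chr12:116405406-116405435 (plus) for Ncapg2 and chr15:89355685-89355714 (plus) for Ncaph2.
Mki67: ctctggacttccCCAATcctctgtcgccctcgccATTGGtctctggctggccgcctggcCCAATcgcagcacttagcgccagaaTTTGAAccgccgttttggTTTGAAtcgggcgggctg
Top2a: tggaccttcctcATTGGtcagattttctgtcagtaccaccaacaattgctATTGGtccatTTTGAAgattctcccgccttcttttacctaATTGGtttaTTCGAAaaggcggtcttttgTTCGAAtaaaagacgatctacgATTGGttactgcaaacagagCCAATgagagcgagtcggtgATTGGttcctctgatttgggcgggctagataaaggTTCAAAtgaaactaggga
Ncapd2: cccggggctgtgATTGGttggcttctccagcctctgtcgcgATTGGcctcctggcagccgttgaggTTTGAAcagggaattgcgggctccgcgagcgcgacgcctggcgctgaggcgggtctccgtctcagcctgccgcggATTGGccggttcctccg
Smc2: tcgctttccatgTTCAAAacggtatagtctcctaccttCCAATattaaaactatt
Ncapg: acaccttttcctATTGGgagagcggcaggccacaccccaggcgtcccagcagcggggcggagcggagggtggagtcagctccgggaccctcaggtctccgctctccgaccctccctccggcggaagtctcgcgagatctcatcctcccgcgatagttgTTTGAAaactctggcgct
Ncapg2: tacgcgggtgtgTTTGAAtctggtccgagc
Ncaph2: cttctttacttcTTCGAAactgggcccgcc

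Top2a had the densest window, with 6 CCAAT boxes, 2 TTTGAA elements and 2 copies of TTCGAA. Mki67 had 3 CCAAT boxes and 2 TTTGAA elements, and Ncapd2 had 3 CCAAT boxes and 1 TTTGAA element. Smc2 and Ncapg had 1 of each. Among condensin II genes, Ncapg2 had 1 TTTGAA and no CCAAT, and Ncaph2 had neither but 1 TTCGAA. Ncaph had no match. Ncapd3 had none at its first start, and 1 TTTGAA, at the far end of the window, at its second.

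**Figure D1:**
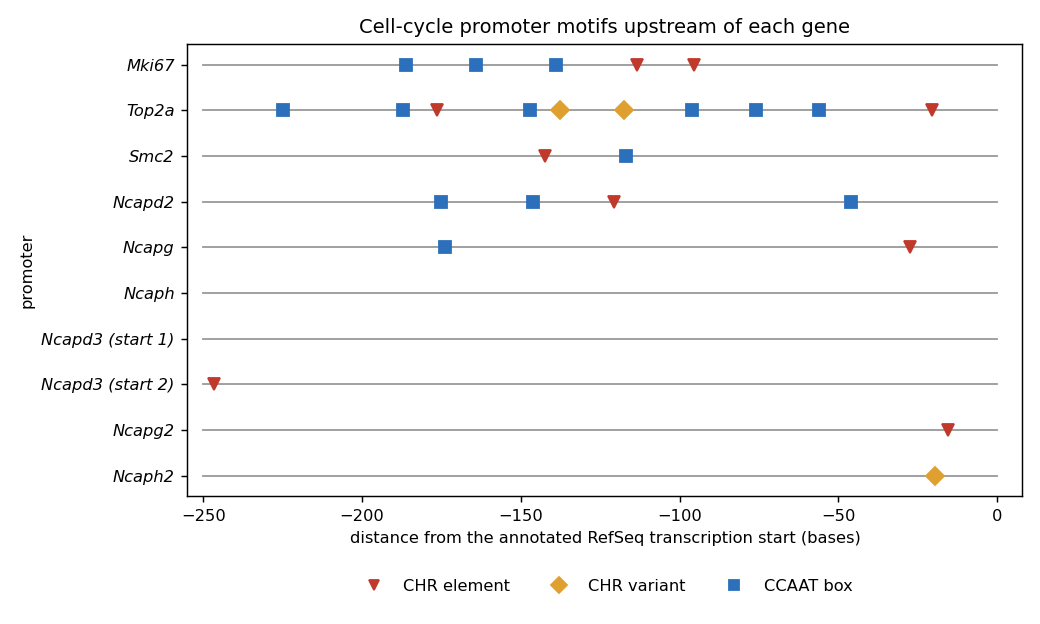
Position of each motif match (symbols, by motif) in the 250 bases before the RefSeq start of 9 genes, with distance from the start in bases on the x axis. CCAAT boxes are confined to the windows of Mki67, Top2a, Smc2, Ncapd2 and Ncapg, and the windows of Ncaph and of the first Ncapd3 start are empty.

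The libraries address how leukaemia cells from recipients under casein kinase 1 inhibition differ from cells of vehicle recipients. All 10 genes had a higher mean in CK1i libraries, and for 9 of them, all but Ncaph2, each CK1i library lay above each CTRL library. Among all tested genes 48.8% had a log2 fold change above 0, and 5.22% had all CK1i libraries above all CTRL libraries. The median log2 fold change of the 10 genes was 0.61, and that of all tested genes was -0.0055. None of the 10 passed the threshold of an adjusted p under 0.05 in edgeR's quasi-likelihood test, and neither did any other gene (0% of 10067, the lowest being 0.224). Of the 10 genes, 9 had an unadjusted edgeR p under 0.05 and were higher in CK1i, against 2.7% of all tested genes (272 genes), and a further 2% (201 genes) were lower in CK1i at that p. These are bulk libraries of sorted cells, so a larger share of dividing cells and more of each mRNA per dividing cell cannot be told apart.

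Library totals were 2472064 to 3105137 counts in CK1i and 2472320 to 3064371 in CTRL, and 1 count was worth 0.326 to 0.401 CPM (counts scaled to library size, with TMM factors) in CK1i and 0.334 to 0.399 CPM in CTRL. The 10 genes together took 6019, 8172 and 4720 counts in CK1i replicates 1, 2 and 3, and 2967, 4106 and 4817 in CTRL replicates 1, 2 and 3. The lowest single value was 45 counts, for Ncaph in CTRL replicate 1, which has a counting error of 14.9%. CK1i replicate 2 had the highest value of all 6 libraries for 8 of the 10 genes, where it is highest for 14.7% of tested genes. CTRL replicate 1 had the lowest value for 9 of the 10, where it is lowest for 21.8% of tested genes. The 10 genes and the related lists are therefore also given below without these 2 libraries.

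**Figure D2:**
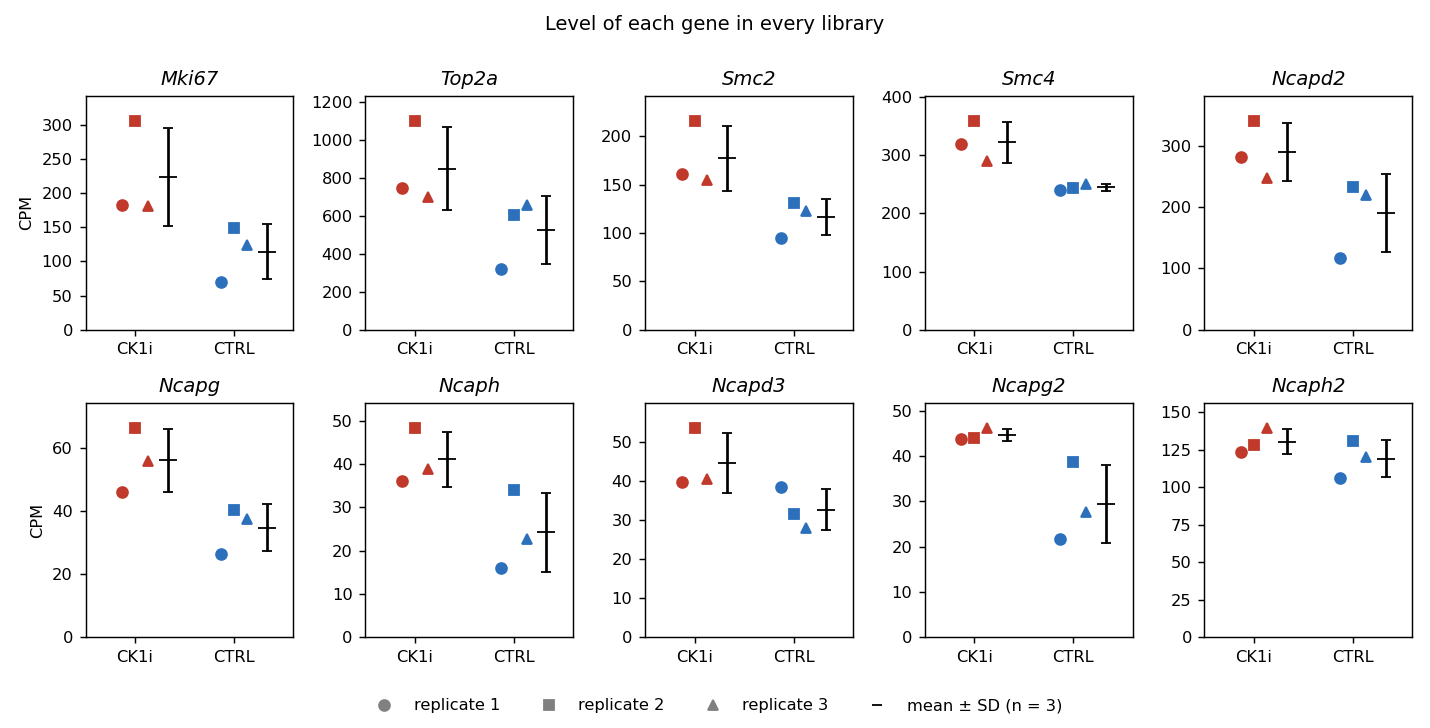
CPM (counts scaled to library size, y axes from 0) of each gene in every library, CK1i in red and CTRL in blue, with the mean ± SD of 3 libraries in black. The groups overlap for Ncaph2 alone, and CTRL replicate 1 (blue circle) is the lowest library for every gene but Ncapd3.

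Mki67, the chromosome surfactant, had 183, 307 and 181 CPM in CK1i replicates 1, 2 and 3, against 70.6, 149 and 124 CPM in CTRL replicates 1, 2 and 3. All CK1i libraries were above all CTRL libraries, with CK1i replicate 2 far above its group and CTRL replicate 1 far below its own. CK1i libraries averaged 223 ± 72.0 CPM and CTRL libraries 115 ± 40.1 CPM (SD, n = 3 each). The log2 fold change was 0.97 ± 0.31 (SE), the largest of the 10 genes (edgeR unadjusted p = 0.014, adjusted p = 0.93). Mki67 lies on chromosome 7, 135689784 to 135716361, on the minus strand of GRCm38.

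Top2a, which encodes the decatenating topoisomerase, had 745, 1101 and 699 CPM in CK1i replicates 1, 2 and 3, against 322, 605 and 655 CPM in CTRL replicates 1, 2 and 3. The groups came close, since CK1i replicate 3 was near CTRL replicate 3. The log2 fold change was 0.69 ± 0.27 (SE; edgeR unadjusted p = 0.031, adjusted p = 1.00), with a mean of 849 ± 220.1 CPM over CK1i libraries and 527 ± 179.6 CPM over CTRL libraries (SD, n = 3 each). Top2b, the paralogue that non-dividing cells also express, had 334, 320.0 and 304 CPM in CK1i replicates 1, 2 and 3, against 311, 314 and 268 CPM in CTRL replicates 1, 2 and 3. Its log2 fold change was 0.10 ± 0.14 (SE; edgeR unadjusted p = 0.46) and its groups overlapped. The ratio of Top2a to Top2b was 2.23, 3.44 and 2.30 in CK1i replicates 1, 2 and 3 and 1.04, 1.92 and 2.45 in CTRL replicates 1, 2 and 3, so the ratios overlapped between the groups. Top2a lies on chromosome 11, 98992943 to 99024189, minus strand.

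The shared SMC genes differed from each other in how much they varied. Smc2 had 161, 216 and 155 CPM in CK1i replicates 1, 2 and 3, against 95.1, 131 and 123 CPM in CTRL replicates 1, 2 and 3. Its log2 fold change, 0.61 ± 0.17 (SE), had the smallest edgeR p of the 10 genes (unadjusted p = 0.0027, adjusted p = 0.76). Smc4 had 319, 359.8 and 289.6 CPM in CK1i replicates 1, 2 and 3, against 239.6, 245 and 251 CPM in CTRL replicates 1, 2 and 3. Its CTRL libraries were nearly level, at 245 ± 5.74 CPM (SD, n = 3) beside 323 ± 35.3 CPM in CK1i, and CTRL replicate 1 did not stand apart. The log2 fold change of Smc4 was 0.40 ± 0.14 (SE; edgeR unadjusted p = 0.011, adjusted p = 0.93). Smc2 lies on chromosome 4, 52439243 to 52488260, and Smc4 on chromosome 3, 69004738 to 69034623, both on the plus strand.

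In condensin I, Ncapd2, a HEAT-repeat subunit, had 283, 342 and 248 CPM in CK1i replicates 1, 2 and 3, against 118, 234 and 220.0 CPM in CTRL replicates 1, 2 and 3. As with Top2a, the separation of CTRL replicates 2 and 3 from CK1i replicate 3 was narrow. The log2 fold change was 0.61 ± 0.24 (SE; edgeR unadjusted p = 0.026, adjusted p = 1.00). Ncapg, the other HEAT-repeat subunit, had 46.1, 66.2 and 55.7 CPM in CK1i replicates 1, 2 and 3, against 26.3, 40.3 and 37.4 CPM in CTRL replicates 1, 2 and 3, a log2 fold change of 0.69 ± 0.20 (SE; edgeR unadjusted p = 0.0033, adjusted p = 0.76). Ncaph, the kleisin that closes the ring, had 36.2, 48.3 and 38.9 CPM in CK1i replicates 1, 2 and 3, against 16.0, 33.9 and 22.7 CPM in CTRL replicates 1, 2 and 3. CTRL replicate 2 was close to CK1i replicate 1, and CTRL replicate 1 was again lowest. Its log2 fold change was 0.77 ± 0.24 (SE; edgeR unadjusted p = 0.0069, adjusted p = 0.84). Ncapd2 lies on chromosome 6, 125168007 to 125191701 (minus strand), Ncapg on chromosome 5, 45669919 to 45700546 (plus strand), and Ncaph on chromosome 2, 127103809 to 127133954 (minus strand).

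In condensin II, Ncapd3, a HEAT-repeat subunit, had 39.8, 53.5 and 40.5 CPM in CK1i replicates 1, 2 and 3, against 38.3, 31.5 and 28.0 CPM in CTRL replicates 1, 2 and 3. Here CTRL replicate 1 was the highest of its group and lay just under the lowest CK1i library. The log2 fold change was 0.45 ± 0.19 (SE; edgeR unadjusted p = 0.029, adjusted p = 1.00). Ncapg2, the second HEAT-repeat subunit, had 43.8, 44.0 and 46.1 CPM in CK1i replicates 1, 2 and 3, against 21.7, 38.7 and 27.7 CPM in CTRL replicates 1, 2 and 3. Its CK1i libraries were nearly level, with CK1i replicate 2 between the other CK1i libraries, and its log2 fold change was 0.61 ± 0.20 (SE; edgeR unadjusted p = 0.0094, adjusted p = 0.91). Ncaph2, the kleisin, had 123, 128 and 139 CPM in CK1i replicates 1, 2 and 3, against 106, 131 and 119.9 CPM in CTRL replicates 1, 2 and 3. Its groups overlapped, since CTRL replicate 2 was above CK1i replicates 1 and 2, and its log2 fold change was 0.13 ± 0.14 (SE; edgeR unadjusted p = 0.36, adjusted p = 1.00). Whether the change of Ncaph2 differed from those of the other subunits was not tested. Ncapd3 lies on chromosome 9, 27030175 to 27095315, Ncapg2 on chromosome 12, 116405402 to 116463731, and Ncaph2 on chromosome 15, 89355719 to 89372826, all on the plus strand.

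Counts of Ncaph2 and Ncapg are less certain than those of the other genes. Exons of Ncaph2 are overlapped on the opposite strand by Sco2, with 717 counts over the 6 libraries, beside 2101 for Ncaph2. Those of Ncapg are overlapped on the opposite strand by Lcorl, with 431 counts beside 769. The sources used here do not give the strand setting of the counting, so reads of these pairs may not have been told apart. The genes overlapping Mki67, Top2a, Smc2, Smc4 and Ncapd2 held 0 to 2 counts, and Ncaph, Ncapd3 and Ncapg2 overlap no annotated gene.

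The subunits specific to condensin I, summed, had 365, 456 and 342 CPM in CK1i replicates 1, 2 and 3, against 160.1, 308 and 280.1 CPM in CTRL replicates 1, 2 and 3. Those specific to condensin II had 207, 226 and 226 CPM in CK1i replicates 1, 2 and 3, against 166, 201 and 176 CPM in CTRL replicates 1, 2 and 3. Neither sum overlapped between the groups. Each sum was mostly 1 gene. Ncapd2 averaged 291 of the 388 CPM of condensin I in CK1i and 191 of 249 CPM in CTRL. Ncaph2, whose counts are less certain, averaged 130 of the 219 CPM of condensin II in CK1i and 119 of 181 CPM in CTRL. The ratio of the sums was 1.76, 2.02 and 1.52 in CK1i replicates 1, 2 and 3 and 0.964, 1.53 and 1.595 in CTRL replicates 1, 2 and 3. The ratios overlapped, and the low one belonged to CTRL replicate 1. The ratio of the kleisins, Ncaph over Ncaph2, was 0.293, 0.377 and 0.280 in CK1i replicates 1, 2 and 3 and 0.151, 0.259 and 0.189 in CTRL replicates 1, 2 and 3, without overlap. It holds the less certain Ncaph2 counts, and how often ratios of other gene pairs lack overlap was not determined. Smc4 over Smc2 overlapped, at 1.66 to 1.98 across CK1i libraries and 1.87 to 2.52 across CTRL libraries. The ratios of the HEAT-repeat subunits overlapped. Ncapd2 over Ncapd3 was 6.12 to 7.11 across CK1i libraries and 3.07 to 7.85 across CTRL libraries, and Ncapg over Ncapg2 was 1.053 to 1.504 across CK1i libraries and 1.041 to 1.349 across CTRL libraries. These ratios set libraries beside each other for the same pair of genes and are not a measure of how much more of a subunit is made than of another.

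Within the CTRL group, CTRL replicate 1 was lowest for 9 of the 10 genes, but by differing amounts. CTRL replicate 1 had 0.511 times the mean of the other CTRL libraries for Top2a, 0.517 times for Mki67, 0.519 times for Ncapd2 and 0.564 times for Ncaph. It had 0.652 times that mean for Ncapg2, 0.676 for Ncapg and 0.750 for Smc2. Smc4, Ncaph2 and Ncapd3 were closer to the other CTRL libraries or above them, with 0.967, 0.846 and 1.29 times. Within the CK1i group, CK1i replicate 2 had 1.69 times the mean of the other CK1i libraries for Mki67 and 1.52 times for Top2a, but 0.98 times for both Ncapg2 and Ncaph2.

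**Figure D3:**
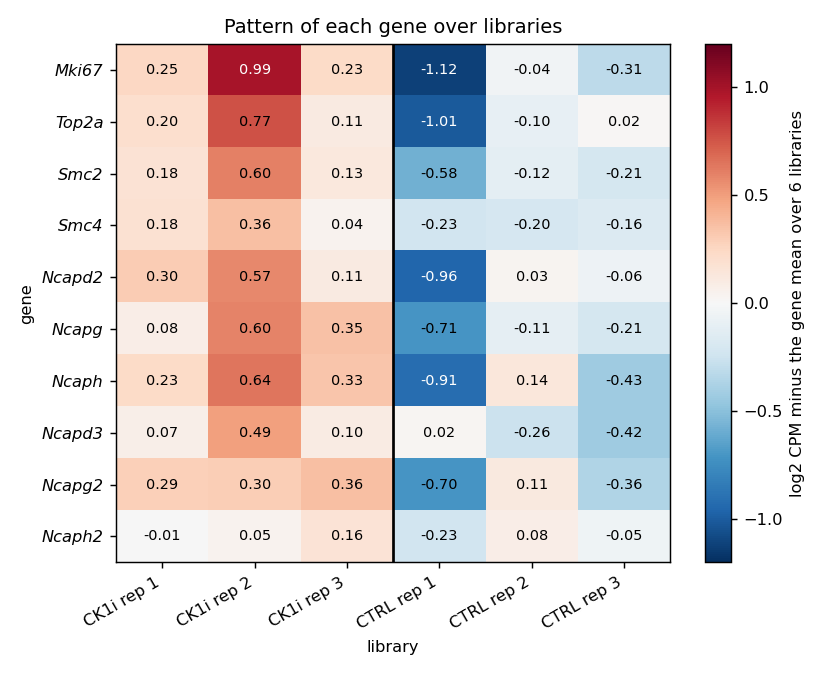
Log2 CPM of each gene minus its own mean over the 6 libraries, with genes in rows and libraries in columns, CK1i left of the black line and CTRL right of it. CTRL replicate 1 runs from -1.12 for Mki67 to 0.02 for Ncapd3, and CK1i replicate 2 from 0.99 for Mki67 to 0.05 for Ncaph2.

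The closest pairs among the 10 genes, by the root mean square difference of these centred log2 values over the 6 libraries, were Top2a with Ncapd2 (0.109) and Smc2 with Ncapg (0.115). Mki67 was nearest to Top2a (0.178) and farthest from Ncaph2 (0.554). Ncapd3 was the farthest of the 10 from Top2a, Ncapd2, Ncapg, Ncaph and Ncapg2, at 0.336 to 0.477. Outside the 10, the 5 tested genes nearest to Mki67 were Bub1 (0.0746), Espl1 (0.0920), Ckap2l (0.0958), Spag5 (0.104) and Fbxo5 (0.115). Those nearest to Top2a were Ercc6l (0.0549), Gen1 (0.0763), Lrr1 (0.0864), Birc5 (0.0959) and Kif22 (0.111). Each of these 10 outside genes had CTRL replicate 1 as its lowest library and CK1i replicate 2 as its highest. Their log2 fold changes ran from 0.56 ± 0.26 for Gen1 to 1.17 ± 0.28 for Ckap2l (SE), which follows in part from the search for a like pattern and is no separate support.

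Without CK1i replicate 2 and CTRL replicate 1, a fit chosen after seeing the data, all 10 genes still had higher means in CK1i and the median log2 fold change was 0.35. The CK1i libraries that were left lay above those of CTRL for 9 genes, where 17.1% of all tested genes have that order with 2 libraries a group. In that fit 1 gene, Mki67 (log2 fold change 0.42), had an unadjusted edgeR p under 0.05, against 2.84% of all tested genes higher at that p. The log2 fold changes were lower than with all 6 libraries by more than 1.5 times for Mki67, Top2a (0.20), Smc2 (0.32), Ncapd2 (0.23), Ncapg (0.39), Ncaph (0.42) and Ncaph2 (0.07). Those of Smc4 (0.30), Ncapg2 (0.44) and Ncapd3 (0.43) moved less. Leaving out CK1i replicate 2 alone kept 5 genes at an unadjusted edgeR p under 0.05, namely Mki67, Smc2, Ncapg, Ncaph and Ncapg2, against 1.8% of all tested genes higher at that p, and gave 0.45 for Top2a and 0.30 for Ncapd3. Leaving out CTRL replicate 1 alone kept 9, against 3.08% of all tested genes, and gave 0.43 for Top2a, 0.36 for Ncapd2 and 0.05 for Ncaph2.

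**Figure D4:**
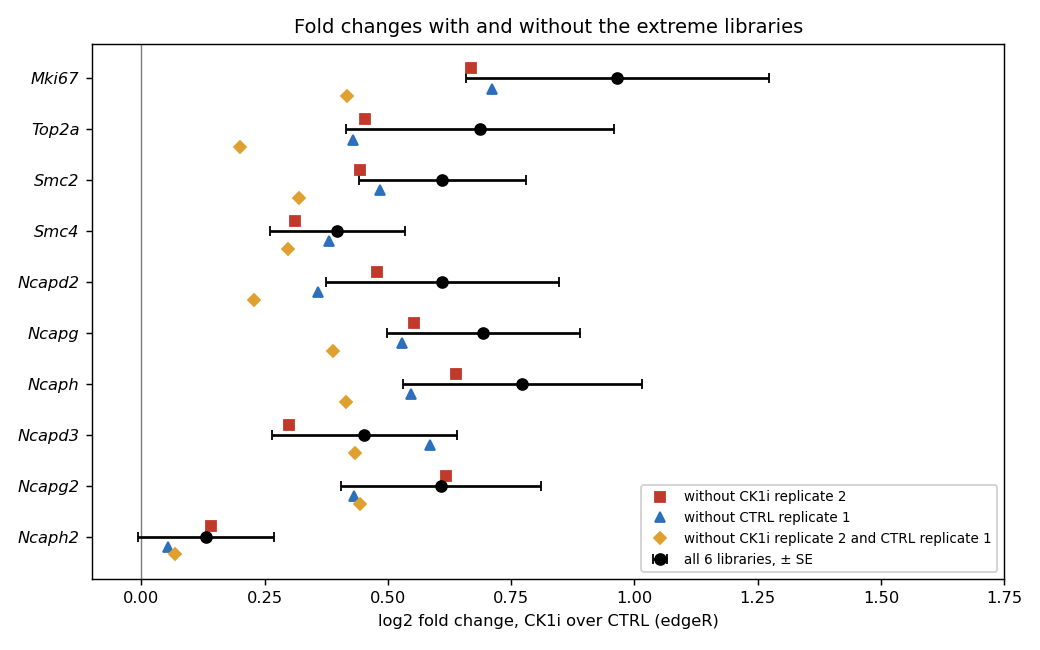
Log2 fold change of CK1i over CTRL for each gene in edgeR (black, ± SE, all 6 libraries) and the same without CK1i replicate 2 (red), without CTRL replicate 1 (blue) and without both (yellow). Every value lies above 0, and without both libraries Top2a is at 0.20 and Ncaph2 at 0.07.

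In other tests of the same comparison the 10 genes also stayed under the threshold. DESeq2 called 8 genes of the table (0.0795%), none of them among the 10, and gave its smallest adjusted p among them, 0.145, for Mki67. limma-voom called 0 genes of the table, with adjusted p values of 0.79 to 1.00 for the 10. The unadjusted p was under 0.05 for 8 of the 10 genes in DESeq2, all but Ncapd3 (0.058) and Ncaph2, and for 9 in limma-voom.

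Genes that act with condensin, topoisomerase and Ki-67 in mitosis were read as 6 lists, and none of their genes passed the adjusted threshold. Of 13 tested kinases, phosphatases and their partners, 12 had higher means in CK1i, with a median log2 fold change of 0.65. Of the 13, 9 were higher at an unadjusted edgeR p under 0.05. Among all tested genes 48.8% had a log2 fold change above 0, and 2.7% were higher at that p. Cdk1, the mitotic kinase that phosphorylates condensin, had 0.60 ± 0.24, and its partner Ccnb1, cyclin B1, had 0.90 ± 0.27 (SE). Aurkb, the kinase of the chromosomal passenger complex that aids condensin loading, had 0.73 ± 0.23, its partner Cdca8, borealin, 0.79 ± 0.20, and the checkpoint kinase Bub1 0.96 ± 0.27 (SE). Cdca2, or Repo-Man, which recruits protein phosphatase 1 to chromosomes, had 0.87 ± 0.31 (SE). The groups overlapped for Cdk1, Ccnb1 and Cdca2, and did not for Aurkb, Cdca8 and Bub1. Without CK1i replicate 2 and CTRL replicate 1, 11 of the 13 genes were higher in CK1i, with a median of 0.31. Of the 13, 1 gene, Cdca8 (0.47), was higher at an unadjusted edgeR p under 0.05, against 2.84% of all tested genes. Another 1 was lower in CK1i at that p, where 2% of all tested genes were lower at that p with all 6 libraries. For the fit without both libraries, the share of all tested genes lower at that p is not given here. Nor is the share with a log2 fold change above 0, so its counts by direction have no background. In that fit Cdk1 was at 0.19, Aurkb at 0.33, Cdca2 at 0.40, Bub1 at 0.49 and Ccnb1 at 0.57. Leaving out CK1i replicate 2 alone put Cdk1 at 0.37. Ppp1cc had 3 to 8 counts a library and was too low to test.

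The other SMC complexes were read in the same way. Cohesin, which holds sister chromatids together, and its regulators had 11 of 16 tested genes higher in CK1i and a median of 0.14. Of the 16, 2 were higher at an unadjusted edgeR p under 0.05, against 2.7% of all tested genes. These were Esco2, the S-phase acetyltransferase of cohesin (0.82 ± 0.25), and Espl1, or separase, which cuts cohesin at anaphase (0.79 ± 0.29, SE). The ring genes Smc1a, Smc3 and Rad21 had 0.26 ± 0.18, 0.17 ± 0.16 and 0.30 ± 0.15 (SE), and their groups overlapped. Without CK1i replicate 2 and CTRL replicate 1, 9 of the 16 genes were higher in CK1i, with a median of 0.019, and 0 had an unadjusted edgeR p under 0.05. Esco2 was then at 0.43, Espl1 at 0.26, Rad21 at 0.15, Smc1a at -0.0043 and Smc3 at -0.057. The SMC5/6 complex, which acts in DNA repair, had 4 of 6 genes higher, a median of 0.089 and 0 genes with an unadjusted edgeR p under 0.05. Its genes with the smallest p were Nsmce1 (0.20 ± 0.14), Nsmce4a (-0.095 ± 0.14) and Nsmce2 (0.15 ± 0.23, SE). Its median was 0.12 without both libraries.

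Among the other topoisomerases and their partners, 8 of 11 genes were higher in CK1i, with a median of 0.085. Top3b, a type IA topoisomerase, was the gene with the smallest p and pointed the other way, at 46.7, 56.1 and 44.9 CPM in CK1i replicates 1, 2 and 3, against 73.8, 59.5 and 67.8 CPM in CTRL replicates 1, 2 and 3, a log2 fold change of -0.44 ± 0.16 (SE; edgeR unadjusted p = 0.014, adjusted p = 0.93). All its CK1i libraries lay below all its CTRL libraries, as for 4.48% of tested genes, and 2% had an unadjusted p under 0.05 and lower values in CK1i. Top1 had 0.25 ± 0.13 and Rmi2 0.36 ± 0.27 (SE). Without CK1i replicate 2 and CTRL replicate 1, Top3b was at -0.47, Top1 at 0.24 and Rmi2 at 0.0014, and the median of the list was 0.13. Of the chromosome periphery, chromokinesin and loading list, 10 of 12 genes were higher in CK1i, with a median of 0.17. Its genes with the smallest p were Kif4, a chromokinesin that binds condensin (0.85 ± 0.31), Kif22 (0.57 ± 0.26) and Hmgb2 (0.68 ± 0.30, SE). Without both libraries 6 of the 12 were higher in CK1i, with a median of 0.016, and Kif4 was at 0.35, Kif22 at 0.048 and Hmgb2 at 0.88. Of the proteins that bind CHR elements or CCAAT boxes and their partners, 11 of 14 were higher, with a median of 0.11. Foxm1, an activator of late cell cycle genes, had 0.61 ± 0.22, Rbl1, or p107, 0.59 ± 0.17, Nfyc 0.36 ± 0.22 and Mybl2, or B-MYB, 0.46 ± 0.42 (SE). Without both libraries 8 of the 14 were higher in CK1i, with a median of 0.040, and Foxm1 was at 0.32, Rbl1 at 0.48, Nfyc at 0.49 and Mybl2 at -0.048. Mybl2 had 5 to 21 counts a library. Nfya was at 0 counts throughout, so that a level of up to 0.177 CPM over the 6 libraries together remains possible (3 counts, counting error only). That bound does not cover reads lost in mapping or counting. Such loss was not tested, so the 0 is not read as absence of Nfya expression.

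**Figure D5:**
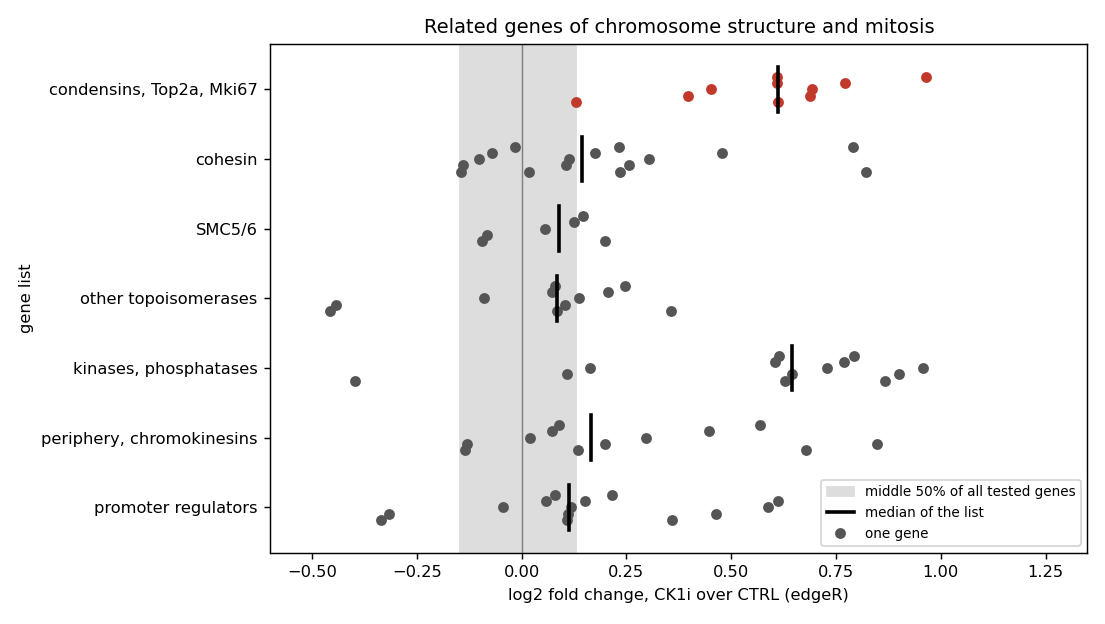
Log2 fold change of CK1i over CTRL (edgeR, x axis) for every tested gene (points) of the 10-gene set, in red, and of 6 related lists, with the median of each list as a black bar and the middle 50% of all tested genes, -0.15 to 0.13, in grey. The medians of the set (0.61) and of the kinase and phosphatase list (0.65) lie furthest to the right, those of cohesin (0.14) and of the periphery list (0.17) just past the grey band, and those of the other lists inside it.

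B-cell markers were present in every library, and those of most other cells were near 0. The B-cell and CLL markers Cd79a, Cd79b, Ms4a1, Cd22 and Cd5 summed to 3191 to 3584 CPM in CK1i and 3195 to 3355 CPM in CTRL. The T-cell list summed to 0 to 6.42 CPM in CK1i and 0.71 to 1.67 CPM in CTRL, and the erythroblast list to 0.802 to 1.63 CPM in CK1i and 1.07 to 4.34 CPM in CTRL. The NK, neutrophil and dendritic lists stayed at or under 3.34 CPM in every library, with Ncr1, Mpo, Elane and Ly6g at 0. The germinal centre and macrophage sums were higher in each CK1i library than in each CTRL library. The germinal centre sum was nearly level in CK1i replicates 1 and 2, at 17.4 and 17.3 CPM. Both sums rest on few counts, so the order of libraries within a group is not read. Bcl6 had 4 to 23 counts a library, Mybl1 18 to 36 and Cd68 59 to 106. The germinal centre list (Bcl6, S1pr2, Gcsam and Mybl1) had 17.3 to 20.9 CPM in CK1i and 10.4 to 11.7 CPM in CTRL, with Gcsam at 0. The monocyte and macrophage list had 33.9 to 39.5 CPM in CK1i and 23.8 to 27.15 CPM in CTRL, nearly all of it Cd68, with Lyz2 at 0 to 5 counts and C1qa at 0 or 1. The plasma cell list was lowest, at 578 CPM, in CK1i replicate 2, where most of the 10 genes were highest, and was 1382 and 1502 CPM in CK1i replicates 1 and 3 and 1052 to 1736 CPM in CTRL. Mitochondrial genes took 3.31% to 5.31% of counts in CK1i and 3.64% to 5.01% in CTRL. The part of the germinal centre, macrophage and plasma cell sums in the differences of the 10 genes was not tested.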

How the data were processed

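RNA was measured in 6 libraries of sorted splenic CLL cells with a 3' end kit (QuantSeq forward with a UMI module), per the labels' protocols. The authors deposited whole-number counts per gene, not normalized. Per the submitters' processing notes, the build was GRCm38.p6, and the tools named without roles include STAR 2.7.3a, featureCounts 1.6.3, Trimmomatic 0.36 and UMI-tools 1.1.1. UMI collapsing and the strand counted are not given in the sources used here. The counting error for Ncaph and the bound for Nfya cover counting error only. Each SE and SD also holds the spread between libraries. All libraries carry 1 batch label. A 3' end count is not divided by gene length.

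Groups follow the treatment label, and replicate numbers 1 to 3 are names in accession order. Genes were filtered with filterByExpr (minimum count 10, minimum total 15), scaled by TMM and tested over all 10067 genes in edgeR 4.0.16 (R 4.3.3), with robust quasi-likelihood in its bias-adjusted form, Benjamini-Hochberg adjustment and two-sided tests. The SE is the size of the log2 fold change divided by the root of F. Centred log2 CPM used a prior count of 2. Alternatives were RLE and upper-quartile scaling, no filter, a filter of 10 CPM in 3 libraries, non-robust fits, DESeq2 1.42.0, limma-voom (limma 3.58.1) and each library left out, with the tested genes kept. The procedure was tested on simulated data with planted changes larger than those of the 10 genes. That test therefore does not show whether changes of their size would be found. Gene positions are from GENCODE release M21 on GRCm38, where 54165 of the table's identifiers matched and 67 did not, and promoters are from RefSeq on GRCm38.p6.

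The 10 genes and the related and marker lists were chosen with earlier results of these data known, so no list was tested and no p was adjusted over a list. From each related list the 3 tested genes with the smallest p are named, plus Cdk1, Aurkb, Top2b, Smc1a, Smc3, Rad21, Cdca2, Foxm1 and Mybl2. Single marker genes, Ppp1cc and Nfya were named after their values were seen. Some marker genes are not reported here and were left out of the summed lists.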

Additional observations from a re-analysis of the deposited data

How the results depend on the processing

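All 140 values of the 10 genes under the 14 alternatives kept their direction and stayed under the threshold of an adjusted p under 0.05, with the smallest log2 fold change 0.054 (Ncaph2, without CTRL replicate 1). The number of genes past the threshold over the whole table, 0 in the reported fit, was 3 with no filter, 8 in DESeq2, 4 without both CK1i replicate 2 and CTRL replicate 1, and 0 to 1 with a single library left out. The number of the 10 genes with an unadjusted edgeR p under 0.05 was 9 in the reported fit. It was 7 with no filter, where Mki67 and Top2a missed it, and 1 without both those libraries. With a single library left out it was 5 to 9, the lowest without CK1i replicate 2. By DESeq2's own unadjusted p it was 8. The median log2 fold change of the 10 genes ranged from 0.46 to 0.79 with a single library left out. Of 349 values of named related genes, 344 kept their direction and side and 5 reversed, none of them past the threshold. These were Nsmce4a at 0.014 without CK1i replicate 3 (range with libraries left out -0.19 to 0.014), Nsmce2 at -0.082 without CTRL replicate 3 (-0.082 to 0.37), and, without both libraries named above, Smc1a at -0.0043 (-0.0043 to 0.44), Smc3 at -0.057 (-0.057 to 0.27) and Mybl2 at -0.048 (-0.048 to 0.77). The cause was not tested, other than that fits without libraries hold fewer samples. Other scalings left the number of higher genes in every list as reported.

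No paired analysis was possible because the labels give no replicate numbers shared between the groups. Counting error was largest for Ncaph, at 45 to 148 counts a library, so its small differences may be missed. Depth was not the only limit, since the SE was larger for Mki67 (0.31) and Top2a (0.27) than for Ncaph (0.24).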
